A study of Rattus norvegicus with 14 samples.

Results

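Cryab encodes αB-crystallin, a small heat shock protein, and its transcription start sites (TSSs) were followed here through nerve, primary Schwann cells and a Schwann cell line. Every TSS that the deposited table assigns to the symbol Cryab was taken, which gave 18 of the 4993 TSSs in the table. The table covers 2993 genes, of which 2304 have 1 TSS and 9 have 18 or more. Cryab was selected on its RPM values in these same libraries, in which its TSSs moved in opposite directions, so its levels, shares and differences are given as descriptions without a p-value. Where calls on its TSSs are counted below, they come from the values that chose the gene, and nothing is read from them.

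αB-crystallin binds partly unfolded proteins and keeps them from aggregating without using ATP, and it is known to associate with intermediate filaments and actin. It is abundant in lens, muscle and glial cells, and in peripheral nerve it is made by myelinating Schwann cells. Its gene lies head to head with Hspb2, which encodes another small heat shock protein, so that the genes are transcribed away from each other on opposite strands.

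The table reports Tn5Prime data. This method sequences the 5′ ends of transcripts, marked by an oligo during reverse transcription, so that reads stack up at those ends. Whether transcription begins at each Cryab TSS was not tested. All values are RPM, the reads of a TSS relative to all reads of its library, in 14 rat libraries. The table is restricted to TSSs found in nerve near a peak of H3K4me3, a mark of active promoters, that also holds binding of SOX10, the transcription factor on which the Schwann cell lineage depends. The comparisons are therefore of TSSs with SOX10 bound nearby in nerve, before and after a differentiation signal and with and without SOX10.

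The sciatic nerve libraries (n = 2) came from independent adult wild type rats. Independent populations of wild type primary rat Schwann cells were kept in 5% serum without neuregulin and forskolin and received vehicle (control, n = 3) or 250 µM CPT-cAMP for 3 days (cAMP, n = 3). CPT-cAMP is a cell-permeable analogue of cyclic AMP that drives cultured Schwann cells towards a myelinating state. S16 cells are an immortalised rat Schwann cell line grown in 10% serum, and were either unmodified (parental, n = 2) or carried CRISPR-induced lesions in the first coding exon of Sox10 (ΔSOX10, n = 4, 1 library for each of 4 clones made with 2 guide RNAs). Each ΔSOX10 library is 1 clone grown from 1 cell, named 1-1, 1-2, 2-1 or 2-2 in the labels, so that differences among clones and the loss of SOX10 enter the same values. Parental replicates were separate RNA samples of 1 line, and p-values in that comparison measure only the spread between these libraries, part of which may be technical.

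The libraries held 29895599 to 79940274 reads, and 3 reads, the floor used here, correspond to 0.0375 to 0.1 RPM. Sox10 itself was at 90.7 and 77.5 RPM in parental S16 cells and had 1, 1, 0 and 4 reads in clones 1-1, 1-2, 2-1 and 2-2. These are reads of transcript 5′ ends, so they measure the transcript and not the edit. The instrument was a HiSeq for nerve and S16 cells and a NovaSeq for the primary cells, so the instrument and the cell model cannot be told apart. The summed level of the 8 Schwann cell markers in the table was between 72487 and 73525 RPM in nerve, 5949 and 6154 RPM in control cells, 10558 and 12230 RPM after cAMP, 10161 and 10318 RPM in parental S16 cells and 146 and 400.3 RPM in the clones. Of 6 fibroblast markers the table holds Col1a1 and Pdgfra, whose sum was 134 to 138 RPM in nerve, 803 to 909 RPM in control cells, 370 to 466 RPM after cAMP, 2255 to 2829 RPM in parental cells and 2971 to 5302 RPM in the clones. The mural marker Pdgfrb (1 of 5 listed) was at 30.6 to 54.8, 0.779 to 1.91, 22.4 to 29.6, 4.95 to 6.66 and 3.07 to 19.8 RPM in these groups, and the immune marker Csf1r (1 of 5) was at 0 in all primary cell libraries and at 4.82 RPM or less elsewhere. Markers of endothelial cells, muscle and adipocytes were not among the TSSs analysed here. The part of other cell types in the Cryab values was not tested.

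All 18 Cryab TSSs lie on the plus strand of chromosome 8 (rn5) within 3340 bp. The one with the most reads in nerve, called the main TSS here, is at chr8:53776063-53776067. The others are named by the distance in bases of their start from the start of the main TSS, with a minus sign for upstream. By position they fall into a single far upstream TSS (-1960), an upstream group of 4 (-324 to -208), a core of 3 (-47, the main TSS and +28), a near downstream group of 3 (+129 to +211) and a far downstream group of 7 (+974 to +1377). Exons, introns and untranslated regions were not assigned to them, because no rn5 annotation was used here.

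The Cryab TSSs were narrow, with a median width of 4.5 bp against 57 bp over all candidate TSSs. The widest were TSS -1960 with 100 bp and TSS +982 with 87 bp. All 18 lie inside the H3K4me3 peak at chr8:53773499-53778021. Only the 4 upstream TSSs (22.2%) lie inside the SOX10 peak at chr8:53775600-53775999, whereas 51.7% of all candidate TSSs overlap their SOX10 peak. TSS -47 starts 17 bp past the edge of the SOX10 peak and the main TSS 64 bp past it.

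Cryab was among the most abundant genes of the table in 4 of the 5 groups. Its total, the sum over the 18 TSSs, was 3896 and 4047 RPM in the nerves. Control cells had 2404, 2334 and 2408 RPM, whereas cAMP-treated cells had 179, 167 and 187 RPM. It was 4256 and 4386 RPM in parental S16 cells and 7105, 3706, 3762 and 4909 RPM in clones 1-1, 1-2, 2-1 and 2-2.

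Ordered by mean, ΔSOX10 cells came highest with 4871 RPM, followed by parental S16 cells with 4321, nerve with 3971, control cells with 2382 and cAMP-treated cells with 178 RPM. The clones and the parental libraries overlapped in range, and every other pair of neighbours in this order was separate. Among the 2993 genes ranked by total, Cryab was number 7 in nerve, 13 in control cells, 383 in cAMP-treated cells, 8 in parental S16 cells and 4 in ΔSOX10 cells. In bulk RNA of this kind, fewer cells that use a gene and less RNA per cell cannot be told apart.

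The main TSS carried most of these reads. Its level was 2703 and 2821 RPM in nerve, 2293, 2224 and 2279 RPM in control cells, and 115, 95.6 and 98.9 RPM after cAMP. In S16 cells it was 3930 and 4010 RPM in the parental libraries and 6860, 3540, 3545 and 4644 RPM in the 4 clones. Of all 4993 TSSs it was number 10 in nerve, 15 in control cells, 623 in cAMP-treated cells, 8 in parental and 5 in ΔSOX10 S16 cells.

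**Figure D1:**
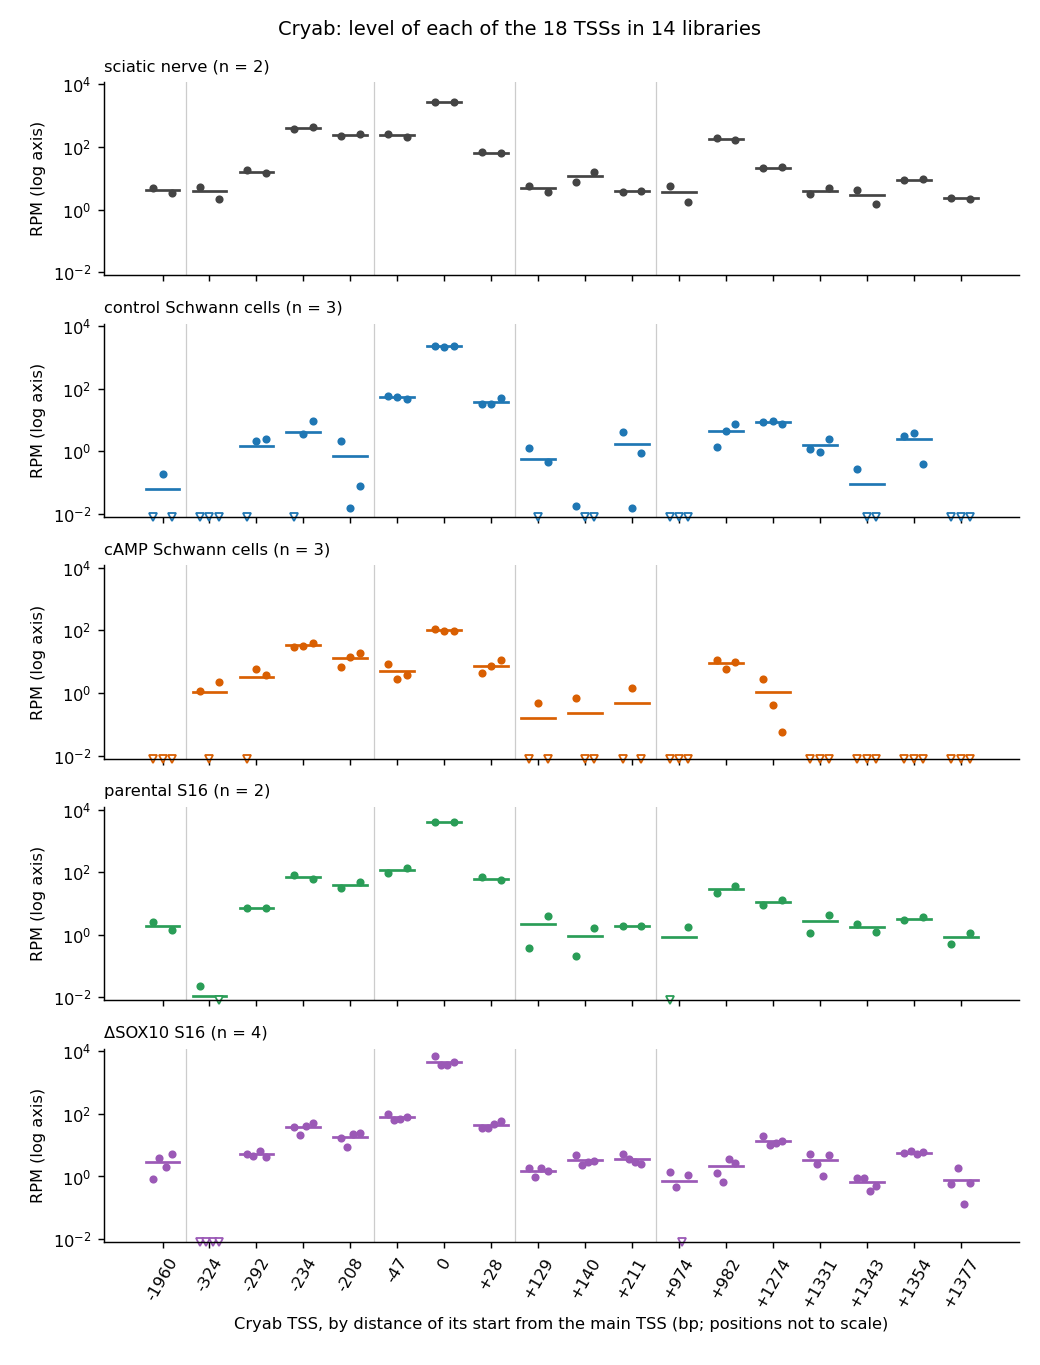
Level of each Cryab TSS (vertical axis, RPM on a log axis) against the distance of its start from the main TSS (horizontal axis, bp, evenly spaced and not to scale), in 1 panel a group. Points are libraries, horizontal strokes are group means, open triangles on the axis are libraries without a read, and grey lines divide the 5 position groups. The main TSS stands near 100 RPM in cAMP-treated cells and at 2224 RPM or more in every library of the other groups.

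The share of the total that the main TSS took differed between the groups. It was 69.4 and 69.7% in nerve, 95.4, 95.3 and 94.6% in control cells, 64.0, 57.3 and 52.8% in cAMP-treated cells, 92.3 and 91.4% in parental S16 cells and between 94.2 and 96.6% in the clones. Nerve and cAMP-treated cells thus had a larger share of Cryab starts outside the main TSS, whereas the core held 98.7% or more of them in control cells and 95.7% or more in S16 cells. In RPM, the sum outside the main TSS did not rise with cAMP. Its mean was 74.7 RPM against 117 RPM in control cells, 1.56-fold lower, and the ranges did not overlap.

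Nearly all of the remainder in nerve came from 5 TSSs. These were TSS -234 with 365 and 425 RPM, TSS -208 with 219 and 263 RPM, TSS -47 with 251 and 216 RPM, TSS +982 with 199.8 and 172 RPM, and TSS +28 with 66.9 and 63.2 RPM. The other 12 TSSs were at 23.3 RPM or less in both nerves. All 18 were above 1 RPM in both nerves, which the selection of the table in nerve favours, against 8 to 10 in control cells, 8 in each cAMP library, 13 and 17 in parental S16 cells and 13 to 15 in the clones.

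The upstream group took 15.6 and 17.4% of the total in nerve. It took 0.0866, 0.244 and 0.494% in control cells and 20.6, 31.8 and 33.9% in cAMP-treated cells. In S16 cells its share was 2.82 and 2.65% in the parental libraries and 0.836, 0.934, 1.86 and 1.65% in the clones. The share of the far downstream group was likewise larger in nerve and cAMP-treated cells than elsewhere, with 6.30 and 5.30% in nerve, 0.598 to 0.799% in control cells, 3.66 to 7.98% in cAMP-treated cells and between 0.495% (clone 1-1) and 1.4% (parental library 2) in S16 cells. The mean level of this group was nevertheless lower with cAMP, at 10.1 RPM against 17.0 RPM in control cells.

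**Figure D2:**
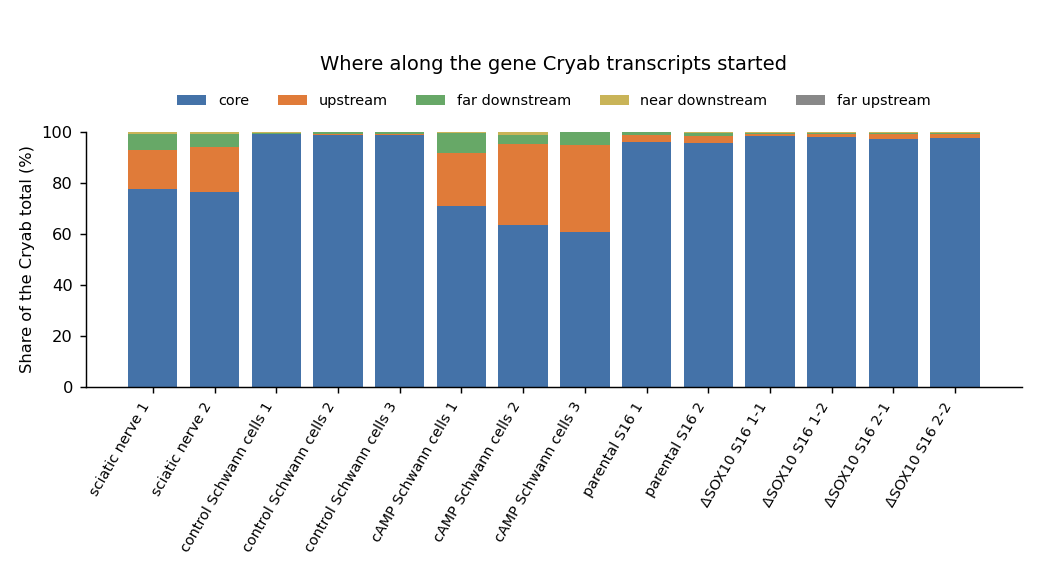
Share of the Cryab total (vertical axis, percent) that started in each of the 5 position groups, as stacked bars from 0 to 100, with 1 bar for each of the 14 libraries. The upstream segment reaches 15.6 to 17.4% in nerve and 20.6 to 33.9% in cAMP-treated cells and stays under 3% elsewhere.

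The comparison of cAMP-treated with control Schwann cells asks how start site use changes when cultured cells are pushed towards myelination. The Cryab total was 13.4-fold lower with cAMP, a difference of -3.74 on the log2(RPM + 1) scale, and the groups did not overlap. Of 2289 genes with a mean of at least 10 RPM in either group, whose median difference was -0.05, Cryab had the 6th lowest log2 difference, and its difference of -2204 RPM was the 5th largest loss of all 2993 genes. Leaving out any of the 6 libraries kept the log2 difference between -3.78 and -3.69.

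The fall was carried by the core. The main TSS was 22.0-fold lower with cAMP, and its levels in the 2 groups, given above, were far apart. TSS -47 was at 57.3, 53.8 and 47.3 RPM in control cells and at 8.47, 2.85 and 3.84 RPM with cAMP, a 10.4-fold lower mean that became 15.8-fold without cAMP library 1. TSS +28 was at 32.0, 31.6 and 51.1 RPM in control cells and at 4.27, 7.29 and 11.2 RPM with cAMP, which was 5.05-fold lower. At each of these 3 TSSs every cAMP library lay below every control library, as at 17.4% of all 4119 TSSs tested. Together the 3 TSSs were 20.4-fold lower.

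Upstream of the core the direction was the opposite. TSS -234 was at 0, 3.55 and 9.35 RPM in control cells and at 29.2, 32.7 and 38.3 RPM with cAMP, a 7.78-fold higher mean that became 18.9-fold without control library 3. TSS -208 was at 2.08, 0.0153 and 0.0778 RPM in control cells and at 6.55, 14.5 and 19.0 RPM with cAMP, 18.4-fold higher over all libraries. Without control library 1 this became 287-fold, against a control mean that rests on 1 and 4 reads. Every cAMP library was above every control library at both TSSs, as at 19.2% of all 4119 TSSs tested.

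The 4 upstream TSSs summed to 2.08, 5.69 and 11.9 RPM in control cells and to 36.9, 53.0 and 63.4 RPM with cAMP, 7.80-fold higher, or 13.2-fold higher without control library 3. The gain was small in RPM next to the loss at the core, so the total fell. The other members of the upstream group were scattered, with TSS -292 at 0, 2.12 and 2.47 RPM in control cells against 0, 5.78 and 3.89 RPM with cAMP, and TSS -324 without a read in control cells and reads in cAMP libraries 1 and 3 only (91 and 149 reads).

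Reads at these minor TSSs were uneven between replicates. TSS -234 had 0, 232 and 481 reads in the control libraries, and TSS -292 had 0, 324 and 265 reads in the cAMP libraries, in groups where the main TSS differed by less than 1.5 times in RPM. Reads carry no stated molecular identifier, so copies of a molecule made by PCR count as separate reads, and the floor covers counting error only.

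Downstream of the core, cAMP went with lower or unclear levels. TSS +1274 was at 8.42, 9.51 and 7.60 RPM in control cells and at 2.79, 0.410 and 0.0587 RPM with cAMP, 7.83-fold lower, or 36.3-fold lower without cAMP library 1. TSS +1331 (1.21, 0.932 and 2.49 RPM in control cells) and TSS +1354 (3.05, 3.77 and 0.408 RPM) had no read in any cAMP library. With the floor of 3 reads per library in place of 0, they were 34.3- and 53.5-fold lower, although limma called neither. TSS +982 did not follow them.

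TSS +982 was at 1.42, 4.43 and 7.35 RPM in control cells and at 11.5, 5.69 and 9.80 RPM with cAMP, and the ranges overlapped. Since the core fell around it, the share of TSS +982 in the total went from 0.059, 0.190 and 0.305% in control cells to 6.43, 3.41 and 5.24% with cAMP. The 3 near downstream TSSs were at 4.13 RPM or less in every primary cell library, and their ranges overlapped between the groups.

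**Figure D3:**
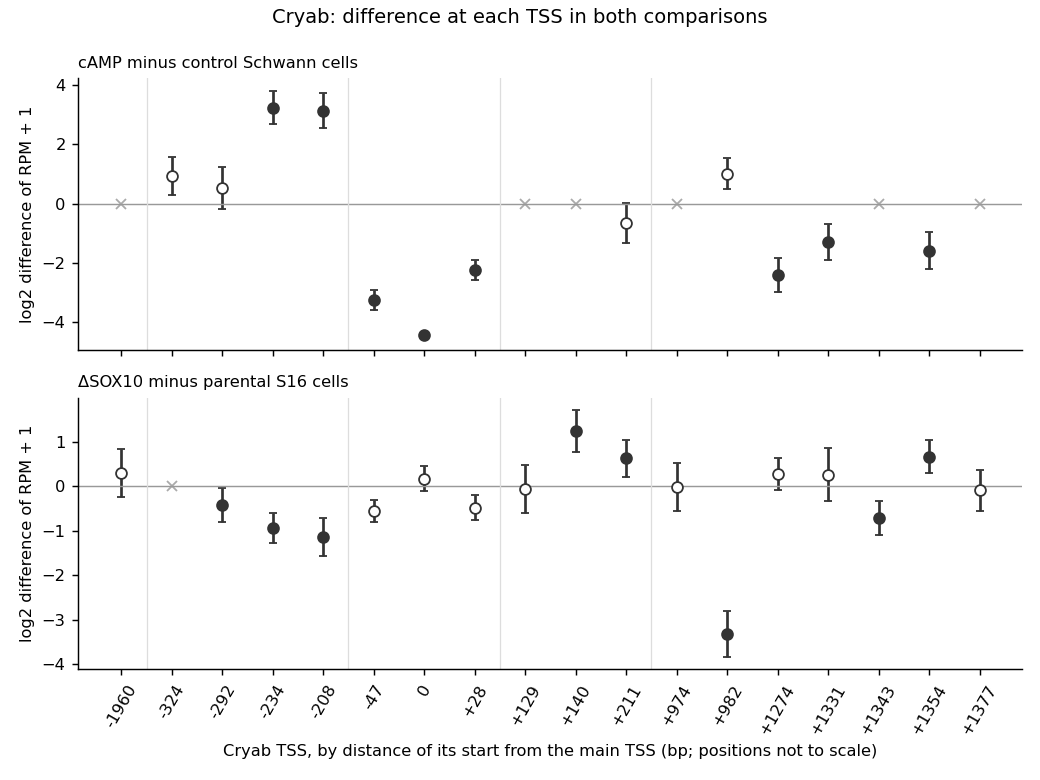
Difference between groups at each Cryab TSS (vertical axis, log2 of RPM + 1, error bars are the standard error from the limma fit) by position (horizontal axis, bp from the main TSS, not to scale), for cAMP minus control cells above and ΔSOX10 minus parental S16 cells below. Filled points are TSSs whose groups did not overlap, open points overlapped, and crosses mark TSSs that did not pass the filter on low values. In the upper panel TSS -234 and TSS -208 lie above 3 while the main TSS lies at -4.45, and in the lower panel TSS +982 lies at -3.32.

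Of the 18 Cryab TSSs, 12 passed the filter, which asked for more than 1 RPM in 2 or more of the 6 libraries. By limma at an adjusted p threshold of 0.05, 2 of these were called higher with cAMP (TSS -234 and TSS -208) and 4 lower (the core and TSS +1274), where 12.9% of all 4119 TSSs tested were called higher and 11% lower. Groups did not overlap at 2 TSSs in the higher and 6 in the lower direction, against 19.2% and 17.4% of all TSSs tested. These values chose the gene, so nothing is read from the counts. Among 460 genes with 2 or more TSSs tested, 9 (1.96%) had called TSSs in both directions, namely Aldoa, Clic1, Cnp, Cryab, Hp1bp3, Lgi4, Npdc1, S100b and Sema3b. Cryab was chosen for this pattern, so its place among them is not a result.

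The comparison of ΔSOX10 with parental S16 cells asks which TSSs near SOX10 binding depend on SOX10. The Cryab total did not separate the groups. Its log2 difference was 0.12 and turned to -0.08 without clone 1-1, whose main TSS was at 6860 RPM against 3540 to 4644 RPM in the other clones. The main TSS was 1.17-fold higher in the clones with all 4 and 1.02-fold lower without clone 1-1.

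The upstream TSSs, inside the SOX10 peak, were lower in the clones. TSS -234 was at 82.1 and 60.6 RPM in parental cells and at 37.3, 21.7, 40.3 and 52.0 RPM in the clones, 1.89-fold lower. TSS -208 was at 30.6 and 48.3 RPM in parental cells and at 16.8, 8.47, 23.1 and 24.7 RPM in the clones, 2.16-fold lower. TSS -292 was at 7.10 and 7.13 RPM against 5.35, 4.42, 6.64 and 4.13 RPM. At all 3 every clone lay below both parental libraries, as at 21.7% of all 3875 TSSs tested, and none was called by limma.

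TSS -324 had 1 read in 1 parental library and none elsewhere in S16 cells. Summed, the upstream group was at 120 and 116 RPM in parental cells and at 59.4, 34.6, 70.0 and 80.8 RPM in the clones, 1.93-fold lower. Clone 1-2 had the lowest value at each of the 2 larger upstream TSSs. The core was 1.15-fold higher in the clones with overlapping ranges, and TSS -47 (94.8 and 135 RPM against 102, 63.4, 66.1 and 80.7 RPM) and TSS +28 (69.5 and 54.7 RPM against 35.7, 34.6, 48.7 and 60.7 RPM) also overlapped.

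Among the Cryab TSSs, the largest relative difference in S16 cells was at TSS +982. It was at 21.0 and 36.4 RPM in parental cells and at 1.32, 0.661, 3.66 and 2.79 RPM in clones 1-1, 1-2, 2-1 and 2-2, which was 13.6-fold lower. All 4 clones lay below both parental libraries, as at 21.7% of all 3875 TSSs tested. TSS +982 starts 982 bp past the main TSS, 1046 bp outside the SOX10 peak. The TSS just before it, TSS +974, averaged 0.868 RPM in parental cells and 0.735 RPM in the clones, and its ranges overlapped. The next TSS downstream, TSS +1274 (9.20 and 13.1 RPM against 19.8, 10.2, 12.1 and 13.9 RPM), also overlapped between the groups.

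Small differences in the other direction were seen among low TSSs. TSS +140 was at 0.203 and 1.68 RPM in parental cells and between 2.36 and 4.99 RPM in the clones. TSS +211 was at 1.92 and 1.87 RPM against 2.54 to 5.20 RPM, and TSS +1354 at 2.89 and 3.68 RPM against 5.14 to 6.33 RPM. In the opposite direction, TSS +1343 was at 2.19 and 1.27 RPM in parental cells and between 0.355 and 0.915 RPM in the clones.

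In the S16 libraries 17 of the 18 Cryab TSSs passed the filter. By limma 1 was called lower (TSS +982), against 6.55% of all 3875 TSSs tested, and 0 were called higher, against 1.65%. At an unadjusted p under 0.05 the counts were 3 lower and 1 higher, and edgeR and DESeq2 on recovered reads each called 1 lower and 0 higher. Groups did not overlap at 5 TSSs in the lower and 3 in the higher direction, against 21.7% and 7.69% of all TSSs tested. Here too the values chose the gene, so nothing is read from these counts. Of 417 genes with 2 or more TSSs tested, 1 (0.24%), Ccser2, had called TSSs in both directions. The median log2 difference of all TSSs tested was -0.18 in RPM and -0.05 after TMM or median-ratio scaling, and with these scalings the Cryab total differed by up to 0.27.

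Side by side, the upstream TSSs, the core and TSS +982 thus gave different patterns over the 5 groups. Nerve had the highest level of TSS -234, TSS -208 and TSS +982, with parental S16 cells next and no overlap between these groups. For TSS -234 and TSS -208 the clones and the cAMP-treated cells came next with overlapping ranges, and control cells were lowest. For TSS +982 the clones were lowest, overlapping control cells. For the main TSS the nerve lay between parental S16 and control cells.

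Hspb2, the head-to-head neighbour, was the only other gene of the table within 25 kb of Cryab. It has 5 TSSs on the minus strand in the same H3K4me3 peak, and its main TSS, 194 bp wide, is at chr8:53774967-53775160, from -1096 to -903 relative to the start of the Cryab main TSS and 440 bp outside the SOX10 peak. It was at 401 and 314 RPM in nerve, at 47.4, 49.4 and 38.7 RPM in control cells and at 17.2, 7.58 and 16.2 RPM with cAMP. In S16 cells it was at 86.3 and 102 RPM in parental cells and at 35.5, 30.3, 41.4 and 36.7 RPM in the clones.

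Hspb2 thus fell in both comparisons. With cAMP the log2 difference was -1.73 (SE 0.296, limma adjusted p = 0.000129), with 0.0363 as the highest adjusted p over the alternatives. In ΔSOX10 cells it was -1.37 (SE 0.217, limma adjusted p = 0.00433), and the call was lost without parental library 2 (-1.25, adjusted p = 0.112). The other 4 Hspb2 TSSs were at 9.27 RPM or less in nerve, and the one of them that was tested, at -713 in S16 cells, was not called (adjusted p = 0.892).

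**Figure D4:**
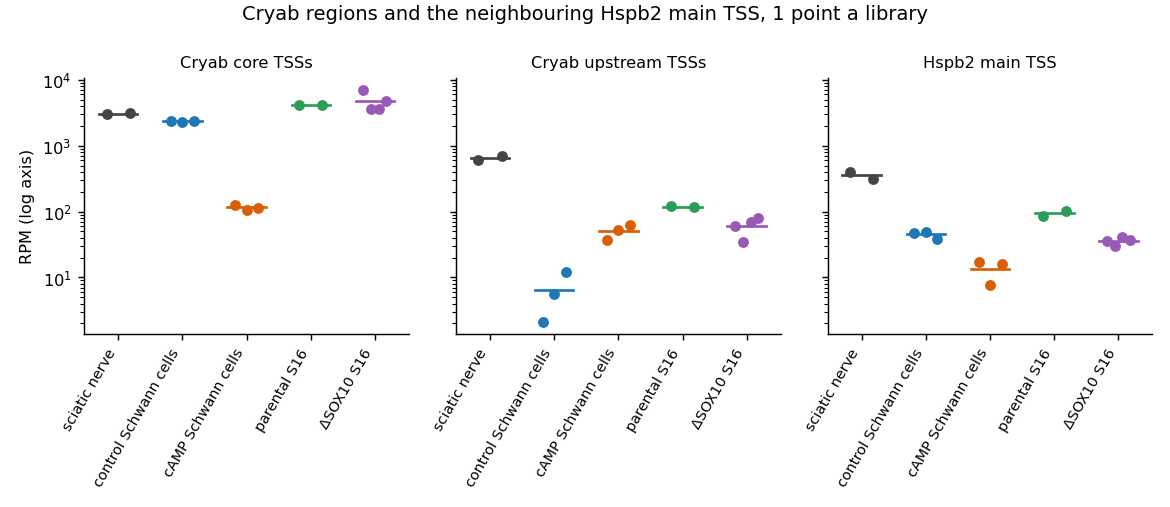
Summed level of the 3 core and the 4 upstream Cryab TSSs and level of the Hspb2 main TSS (vertical axis, RPM on a log axis) in the 5 groups (horizontal axis). Points are libraries and strokes are group means. With cAMP the core and Hspb2 panels step down from control cells while the upstream panel steps up, and in the clones the upstream and Hspb2 panels lie below parental cells while the core overlaps them.

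Other small heat shock genes were mostly outside the table. Of 9 further family members, the candidate TSSs held Hspb2 and Hspb6. Hspb6, a small heat shock protein abundant in muscle, was at 8.43 ± 5.19 RPM (SD, n = 3) in control cells and 0.336 ± 0.529 RPM with cAMP (log2 difference -2.73, SE 0.589, limma adjusted p = 0.00135), and edgeR on recovered reads gave an adjusted p of 0.0547. In the clones Hspb6 was higher, at 105 ± 38.1 RPM (n = 4) against 7.27 ± 1.55 RPM in parental cells (n = 2), with a log2 difference of 3.62 (SE 0.358, limma adjusted p = 0.000276).

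Of 12 cytosolic heat shock response genes tested with cAMP, each by its main TSS in nerve, 2 fell and 1 rose, with a median log2 difference of -0.16, against 13.9% lower, 13.5% higher and a median of -0.03 over the main TSSs of 2832 genes. Hsp90aa1, the stress-induced Hsp90, fell by 0.43 and St13, a cofactor of Hsp70, by 0.95 on the log2 scale, while Hspe1, the mitochondrial co-chaperonin, rose by 0.26. In ΔSOX10 cells limma called 0 of the 12 genes in either direction, against 1.99% higher and 5.5% lower over the main TSSs of 2763 genes. With so few genes and such shares, nothing is read from a count of 0. The median was -0.01 against -0.17, and edgeR and DESeq2 also called 0. At an unadjusted p under 0.05 limma gave 0, or 1 higher with a pseudocount of 0.1, without the filter or without clone 2-2. After TMM or median-ratio scaling it gave 2 higher, as did edgeR and DESeq2.

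Of 4 measured genes of chaperone-assisted degradation, 2 fell with cAMP (median -0.58, against 13.9% of all main TSSs lower and a median of -0.03), namely the autophagy receptor Optn by 1.29 and the Hsp70 co-chaperone Bag5 by 0.64 on the log2 scale. The count was 1 without the filter and without control library 1 or cAMP library 2 or 3. In ΔSOX10 cells limma, edgeR and DESeq2 each called 0 of the 4, and limma 0 at an unadjusted p under 0.05 (median -0.13). Over all main TSSs limma called 1.99% higher and 5.5% lower, so nothing is read from 0 of 4. Of 13 genes of the endoplasmic reticulum unfolded protein response, 11 fell with cAMP (median -0.60), or 5 without the filter, 8 by edgeR, 7 without control library 3 or cAMP library 1 and 6 without cAMP library 3, among them the ubiquitin ligase Syvn1 by 1.46, the collagen chaperone Serpinh1 by 1.31, and the stress transcription factors Atf4 by 1.05 and Ddit3 by 0.85. In the clones 2 of the 13 rose (median 0.10), Ddit3 by 1.48 and Atf4 by 1.28, where 1.99% of main TSSs were called higher and 5.5% lower. That count was 1 without the filter and 4 by DESeq2.

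Genes of filaments and the actin network were measured in 9 cases with cAMP. Of these 5 fell and 2 rose (median -0.40), against 13.9% lower, 13.5% higher and a median of -0.03 over all main TSSs, with Actn4 lower by 1.13, Tln1 by 0.97, Tuba1a by 0.82 and Actb by 0.46, and with Cnn3 higher by 0.51 and Vim, the intermediate filament vimentin, by 0.38. In the clones 2 of 8 fell (median -0.50), Tubb2a by 0.93 and Cnn3 by 0.89, against 5.5% lower and a median of -0.17 over all main TSSs. None was called higher, against 1.99%, but 1 was after TMM or median-ratio scaling, by edgeR, by DESeq2 and without clone 1-2. Without the filter, 0 were called lower. Actb was higher by 0.78 (SE 0.218, limma adjusted p = 0.0646) without overlap between the groups.

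Of 10 myelin genes tested with cAMP by their main TSS in nerve, 8 were higher and 1 lower (median 3.06), against the same 13.5% and 13.9% of all main TSSs. Mal led with 8.36, followed by Pllp with 6.42, Egr2 with 5.11 and Mag with 4.95. The 1 lower call was at the main TSS of Cnp (-0.30), a gene with TSSs called in both directions, and the sum over all Cnp TSSs was 1788 ± 10.1 RPM (SD, n = 3) in control cells and 1850 ± 69.7 RPM with cAMP. In the clones 7 of 8 myelin genes fell (median -5.78, against 5.5% of all main TSSs lower), among them Pmp22 with -8.37, Mal with -6.89 and Mbp with -6.41.

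Several of these calls rested on single libraries or on the filter. Without the filter, 7 of the calls named here were not made with cAMP, namely Hsp90aa1, Hspe1, Bag5, Syvn1, Ddit3, Vim and Cnp (adjusted p 0.0598 to 0.187), and 3 were not made in S16 cells, namely Cnn3, Tubb2a and Ddit3 (0.0735 to 0.0956). By edgeR and with a pseudocount of 0.1, Hspe1 (0.0505 and above) and Syvn1 (0.0566 and above) lost their calls with cAMP, and by edgeR Tubb2a did in S16 cells (0.0557). With cAMP, Hspe1 was no longer called without any one library except control library 3 (adjusted p 0.0662 to 0.18), nor Bag5 without control library 1 or cAMP library 2 or 3 (0.0547 to 0.079), nor Syvn1 without control library 2 or 3 or cAMP library 1 or 2 (0.0923 to 0.176), nor Ddit3 without control library 1 or 3 or cAMP library 3 (0.0589 to 0.0781), nor Cnp without control library 3 or cAMP library 2 (0.064 to 0.0853). In S16 cells Cnn3 lost its call without either parental library (0.123 to 0.254), and Tubb2a without either parental library or clone 1-2, 2-1 or 2-2 (0.0588 to 0.282).

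**Figure D5:**
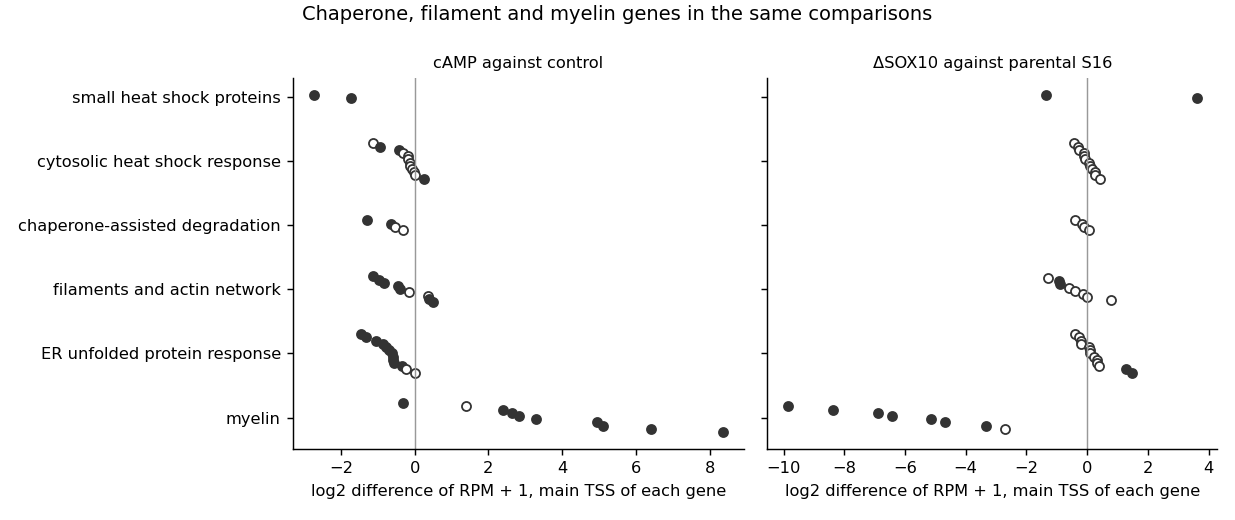
Log2 difference of RPM + 1 at the main TSS of each gene (horizontal axis) for 6 gene lists (vertical axis), with cAMP on the left and ΔSOX10 on the right. Points are genes, filled where limma called them and open where it did not. With cAMP most chaperone and unfolded protein response genes lie at or below 0 and most myelin genes above it, and in ΔSOX10 cells most myelin genes lie below 0.

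The genes whose totals were nearest to the Cryab pattern over the 14 libraries were Celf2, 2200002D01Rik, Klf2, Zfp36 and Fuca2. Their root mean square distance from Cryab, after each gene's log2 total was centred on its own mean, ran from 0.95 to 1.13, against a median of 2.12 over 2439 genes. Cryab itself varied by 1.85 around its own mean on this scale. The closest, Celf2, which encodes an RNA-binding protein, averaged 15.03 RPM in nerve, 23.6 in control cells, 3.40 with cAMP, 32.0 in parental and 21.9 in ΔSOX10 S16 cells. With pseudocounts of 0.1 and 5 RPM in place of 1, 5 and 3 of these 5 genes remained among the nearest 5, and over the primary cell libraries alone or the S16 libraries alone 0 did.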

How the data were processed

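Per the labels and the study's methods, the authors' steps were trimming (Cutadapt 1.14), mapping to rn5 (STAR 2.5.2a), SAMtools 1.9, Make_CTSS for the 5′ positions, Paraclu for clusters and featureCounts (Subread 1.6.1) for reads per cluster. The deposited values are RPM per TSS and library, scaled by the authors to the whole library. The authors' log2 fold changes and their FDR-adjusted p-values, from edgeR 3.24.3, are also deposited and were not used. Within a library the RPM values step by the worth of 1 read, and between 96.7 and 100% of values under 200 reads came out whole within 0.02 reads. In sciatic nerve library 2 this held for 100% of them. In both parental libraries and in clones 1-1 and 1-2, 8.59 to 9.35% of values above 0 carry 3 digits, so their reads are approximate. The library totals, 29895599 to 79940274 reads, follow from these steps.

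Folds are ratios of mean RPM. With every library of a group at or under the floor of 3 reads, the floor took its place. Tests used limma 3.58.1 in R 4.3.3 (lmFit and a trended eBayes, two-sided) on log2(RPM + 1), for TSSs with more than 1 RPM in 2 or more libraries of a comparison. All tested TSSs entered the Benjamini-Hochberg adjustment, and calls were made at 0.05. Fold changes of low TSSs depend on the pseudocount. The model was tested on simulated data. Cryab, its position groups, the gene lists and the naming rule were chosen with earlier results of these data known. Genes were named by these rules: every Cryab TSS, every gene within 25 kb, every measured small heat shock gene, up to 4 called genes a direction, comparison and list by log2 difference, and the 5 genes nearest to Cryab with a group mean of at least 10 RPM. Genes called in both directions, and Actb in S16 cells, are named outside this rule, after their values were seen. A value that the rule would name in the myelin list is not reported here. Alternatives were other pseudocounts, filters and scalings, recovered reads in edgeR 4.0.16 and in DESeq2 1.42.0, TSSs summed per gene, a replicate block and each library left out. The table was read with pandas and the figures were drawn with Matplotlib.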

Additional observations from a re-analysis of the deposited data

Results flagged for a closer look

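Of 50 sets of 4 clone values for Cryab and Hspb2 that were screened with Dixon's test at 95%, 2 held a clone far from the other 3, and chance alone gives about 1 in 20. The near downstream group of Cryab was at 12.1 RPM in clone 1-1 against 6.91 to 7.73 RPM in the others. The share of TSS +1274 in the Cryab total was 0.32% in clone 2-1 against 0.276 to 0.283% in the others. Groups of 2 and 3 libraries were too small for this screen.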

How the results depend on the processing

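The Cryab total with cAMP kept its sign under the 10 alternatives run for it (pseudocounts, scalings and a library left out), and both Hspb2 differences kept theirs under all run for them. Without the filter and with edgeR and DESeq2 on recovered reads, 1 Cryab TSS was called higher with cAMP in place of 2, the call lost being that of TSS -234. TSS +1274 was not called lower without the filter or by edgeR, and the count of lower calls ran from 3 to 6 over the alternatives. The cause was not tested. Counts over all TSSs with cAMP were 530 higher and 452 lower, 409 to 465 and 340 to 390 with a library left out, and 276 lower without the filter. In ΔSOX10 cells they were 64 higher and 254 lower, with 38 higher without the filter, 164 higher with DESeq2, 166 lower at a mean of at least 5 RPM and 165 lower with TSSs summed per gene, where fewer features are tested. With a library left out they were 28 to 55 higher and 71 to 265 lower, the lowest being without parental library 2 (28 higher, 74 lower) or 1 (36 higher, 71 lower), which leaves 1 parental library that is assumed to vary like the clones. The log2 difference of Hspb2 in ΔSOX10 cells was -1.49 to -1.25 with a library left out. With Cryab TSSs at 1% or more of the nerve total only, the main TSS took 71.1% in nerve, 95.8% in control and 92.6% in parental S16 cells, in place of 69.5, 95.1 and 91.9%. The 45 list gene calls gave 660 values over these settings, of which 593 kept the call, 67 lost it and 0 turned direction. Equal replicate numbers did not pair control with cAMP libraries (correlations of deviations 0.0294, 0.00751 and 0.0379 over 4119 TSSs), and a replicate block gave 553 higher and 467 lower TSSs. S16 labels share no replicate numbers, so no paired analysis was possible there. TSSs of a few reads are limited by depth, and the 2 parental libraries carry little information on their own spread.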
